A study of Mus musculus with 16 samples.

Results

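The glycolysis and hypoxia response genes described here are 34 genes, picked by symbol, that carry glucose and lactate across the membrane, run glycolysis from hexokinase to lactate dehydrogenase, or belong to the hypoxia inducible factor (HIF) pathway and its known targets. They matched 35 of the 30141 gene rows counted, because Aldoa has 2 rows, the main row ENSMUSG00000030695 and the adjacent ENSMUSG00000114515. Of these rows, 34 passed the filter on low counts, as did 18341 rows of the whole data set. The row left out was Adm, which encodes the vascular peptide adrenomedullin and had 31 reads over all libraries together.

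RNA was sequenced from 16 libraries of LSK cells (lineage-negative, Sca1-positive, Kit-positive), the marrow fraction in which haematopoietic stem cells and early progenitors lie. Every donor carried Mx1-Cre, an interferon-driven recombinase that acts in blood and in other tissues, and was induced with poly(I:C). After 4 weeks donor marrow was pooled 1:1 with CD45.1 competitor marrow and transplanted. The labels do not say that donor cells were sorted away from competitor cells. They give poly(I:C) at 15 ug per g and at 400 ug, without saying which animals had which. The R882H azacitidine group (5 libraries) came from donors with a human DNMT3A R882H allele, freed by Cre from a lox-stop-lox block beside mouse Dnmt3a, in recipients given azacitidine at 2.5 mg per kg on 5 days a week with 2 days off for 2 weeks. The R882H NaCl group (4 libraries) had the same donors and 0.9% NaCl as vehicle. The WT azacitidine group (3 libraries) and the WT NaCl group (4 libraries) came from donors without the mutant allele under the same treatments. Azacitidine is a cytidine analogue that is built into nucleic acids and traps DNA methyltransferases.

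Glycolysis splits glucose into pyruvate, and lactate dehydrogenase turns pyruvate into lactate when it is not passed to the mitochondria. In normal oxygen, prolyl hydroxylases of the Egln family mark HIF alpha subunits for destruction. At low oxygen the subunits persist, bind a short DNA core at their targets and raise transcription of glucose transporters, glycolytic enzymes and pyruvate dehydrogenase kinase. Haematopoietic stem cells lie in marrow with little oxygen and are known for relying on glycolysis.

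The start regions of Egln3, P4ha2 and Ddit4 are shown because each had the lowest p among these genes in at least 1 later comparison. Pfkl, which had the lowest p in R882H against WT under azacitidine, is not shown. Each line gives 300 bases of the gene's own strand from RefSeq (GRCm38.p6), 250 before and 50 after the annotated start. Capitals mark the HIF core ACGTG or GCGTG and, for the opposite strand, CACGT or CACGC.
Egln3 (chr12:54203825-54204124, minus strand): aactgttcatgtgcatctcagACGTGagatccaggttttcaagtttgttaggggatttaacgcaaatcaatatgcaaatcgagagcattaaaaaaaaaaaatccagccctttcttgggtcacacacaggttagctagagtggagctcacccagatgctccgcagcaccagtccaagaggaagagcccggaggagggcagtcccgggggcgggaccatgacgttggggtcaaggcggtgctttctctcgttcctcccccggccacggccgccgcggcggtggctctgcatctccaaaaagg
P4ha2 (chr11:54100674-54100973, plus strand): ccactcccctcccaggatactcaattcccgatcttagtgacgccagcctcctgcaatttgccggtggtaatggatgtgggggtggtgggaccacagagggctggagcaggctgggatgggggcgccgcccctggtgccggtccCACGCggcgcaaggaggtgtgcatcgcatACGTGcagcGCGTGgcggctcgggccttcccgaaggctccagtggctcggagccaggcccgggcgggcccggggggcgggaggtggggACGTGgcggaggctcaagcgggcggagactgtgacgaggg
Ddit4 (chr10:59951721-59952020, minus strand): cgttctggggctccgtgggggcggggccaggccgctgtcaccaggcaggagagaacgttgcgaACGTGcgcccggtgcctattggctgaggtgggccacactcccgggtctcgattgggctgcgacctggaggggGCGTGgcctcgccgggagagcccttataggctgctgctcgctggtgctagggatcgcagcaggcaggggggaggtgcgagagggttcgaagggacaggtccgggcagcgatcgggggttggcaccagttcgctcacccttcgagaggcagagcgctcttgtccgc
The Egln3 window held the core 1 time, the P4ha2 window 4 times and the Ddit4 window 2 times. Start windows were found for 31 of the 34 genes, 45 windows in all, and 35 of these (77.778%) held at least 1 core on either strand. The core was in 59.079% of 14814 windows of the genes tested and in 43.773% of all 32851 windows in the table. It can overlap the E-box CACGTG, which other factors bind. The windows of these genes also had a median of 23 CpG dinucleotides, against 19 in windows of the genes tested and 7 in all windows. A match to so short a core is a description of the letters only.

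Together the 35 rows took 0.5665 to 0.7864% of the gene counts of a library. The depth of a library was 35860445 to 56012766 reads. Within a gene, libraries are compared in CPM, counts scaled to the TMM-normalised library size. Between genes, levels are compared in the deposited FPKM, which are also divided by feature length. The labels do not say that the libraries of a group came from separate animals, so p-values measure the spread between these libraries, which may in part be technical. Kit stood at 410 to 1226 CPM, Ly6a, which encodes Sca1, at 30.6 to 275, and Cd34 at 427 to 1376, so the markers of the sorted population were detected in every library. Mouse Dnmt3a, whose row does not tell the alleles apart, stood at 90.8 to 103 CPM in R882H azacitidine, 62.9 to 108 in R882H NaCl, 80.2 to 146 in WT azacitidine and 82.9 to 106 in WT NaCl. On the first principal component of all genes tested (26.4% of the variance), NaCl libraries 1 and 2 lay on 1 side (28.1 to 78.6) and NaCl libraries 3 and 4 on the other (-63.7 to -38.0). Markers of other cells differed between libraries. The summed level of 12 erythroid markers, none at 0 in any library, was 4001 and 10845 CPM in R882H NaCl 1 and 2, against 1145 to 2299 in the 14 other libraries. The 13 mitochondrially encoded genes summed to 10531 and 6052 CPM in the same 2 libraries, against 2257 to 5806 in the rest.

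Per length, Ldha was the most abundant of the genes described. This gene, for the A subunit of lactate dehydrogenase, averaged 323 FPKM over the 16 libraries. Pkm (pyruvate kinase) followed at 207, Aldoa (aldolase A) at 205, Tpi1 (triosephosphate isomerase) at 189 and Eno1 (enolase) at 153. Pgam1 (phosphoglycerate mutase) averaged 98.3 FPKM and Pgk1 (phosphoglycerate kinase) 82.5. The entry enzymes Pfkl (liver-type phosphofructokinase), Gpi1 (glucose phosphate isomerase) and Hk1 (hexokinase) averaged 51.9, 50.1 and 47.3 FPKM. In R882H azacitidine libraries the order began with Ldha at 323 ± 9.56, Pkm at 234 ± 10.9 and Aldoa at 219 ± 14.9 FPKM (SD, n = 5). In R882H NaCl libraries Pkm (183 ± 92.6) and Aldoa (205 ± 10.3, SD, n = 4) lay within 1 SD of each other. The second hexokinase, Hk2, averaged 4.61 FPKM, and the second phosphofructokinase, Pfkp, 6.42.

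The HIF genes lay lower on the same scale. Bnip3l, a receptor for the removal of mitochondria, averaged 46.7 FPKM, Higd1a, a mitochondrial inner membrane protein, 29.7, and Ndrg1, a stress and differentiation gene, 26.5. Pdk1, the kinase that shuts pyruvate dehydrogenase, averaged 17.9, Egln1 17.3 and Slc2a3, a neuronal-type glucose transporter, 14.9. Hif1a itself averaged 7.39 FPKM. The lowest were Vegfa (the endothelial growth factor) at 3.07, Ankrd37 (an ankyrin repeat protein) at 2.28, Slc16a3 (a lactate exporter) at 1.94, P4ha2 (a collagen prolyl hydroxylase subunit) at 0.0871 and Adm at 0.0291 FPKM.

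Gapdh, at 5.47 FPKM, stood far below its neighbours Tpi1 and Pgk1 in the same pathway. Its row cannot be read on its own. The annotation held 78 other genes at least 95% identical to it over 200 bases or more, 74 of them with counted rows that together took 138.091% of the reads of the Gapdh row. How reads with several positions were treated is not given in the sources used here. Pfkp shares sequence with an overlapping gene whose row held 138.311% of its reads, so its row is uncertain too. For the other genes the near copies took at most 11.741% of the reads (Bnip3l).

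**Figure D1:**
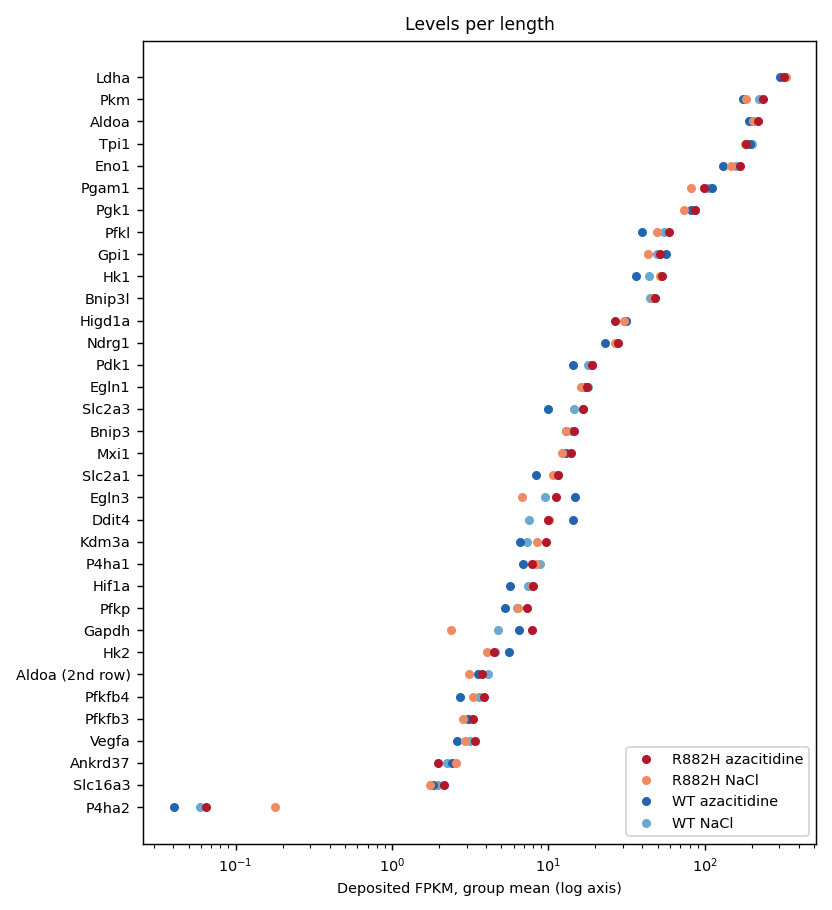
Group mean level of each gene in deposited FPKM on a log axis, with genes ordered by their mean over the 16 libraries and 1 point per group. Ldha leads at 323 FPKM and P4ha2 is lowest of the rows tested at 0.0871; for most genes the 4 points lie close together beside the range between genes.

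Azacitidine against NaCl in R882H addressed the effect of the drug in cells with the mutant allele. No gene of the 34 rows tested passed the test. Egln3 (chr12:54178981-54203860), which encodes an oxygen-sensing prolyl hydroxylase and is itself a HIF target, had the lowest p. It stood at 25.3, 35.8, 33.4, 29.0 and 30.1 CPM in R882H azacitidine libraries, against 19.3, 13.7, 20.1 and 22.9 CPM in R882H NaCl libraries. All 5 azacitidine libraries lay above all 4 NaCl libraries. The log2 change was 0.69 (SE 0.21), with an adjusted p of 0.422 by edgeR's quasi-likelihood test and Benjamini-Hochberg adjustment over all genes.

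P4ha2 (chr11:54100095-54131665) had 0.639, 0.183, 0.282, 0.514 and 0.469 CPM in R882H azacitidine libraries, against 2.45, 1.10, 0.574 and 0.645 CPM in R882H NaCl libraries. NaCl libraries 1 and 2, the pair with the high erythroid sums, were high, and the groups overlapped. Within the pair the erythroid sum ran the other way, at 4001 CPM in library 1 and 10845 in library 2. Car1 (981 and 4379 CPM in libraries 1 and 2) and Car2 (2146 and 4485) made up most of it. The globin rows Hba-a1 (211 and 82.2), Hba-a2 (24.6 and 7.45), Hbb-bs (75.5 and 12.4) and Hbb-bt (58.2 and 12.1) ran as P4ha2 did. So did Alas2 (2.42 and 2.26), and the other erythroid markers ran with the sum. Among T and NK cell markers, Cd3e was 24.2 CPM in R882H NaCl 1 and 3.00 in R882H NaCl 2, while Nkg7 was highest in WT azacitidine 2. The log2 change of P4ha2 was -1.51 (SE 0.52, edgeR quasi-likelihood adjusted p 0.554), and was -0.89 without R882H NaCl 1. The part of the erythroid and T cell markers in this difference was not tested.

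The Gapdh row (chr6:125161715-125166467) had 12.7, 12.1, 12.9, 71.3 and 59.9 CPM in R882H azacitidine libraries, against 5.85, 10.4, 13.6 and 11.6 CPM in R882H NaCl libraries. Libraries 4 and 5 were high, and the other 3 azacitidine libraries lay among the NaCl values. The log2 change was 1.70 (SE 0.60, edgeR quasi-likelihood adjusted p 0.564). It was 1.08 in the fit blocked on replicate number, where edgeR's quasi-likelihood adjusted p was 0.895, and 0.70 when the row was summed with its near copies (SE 0.27, edgeR quasi-likelihood adjusted p 0.627), a sum chosen after seeing the data. The rows of its near-identical copies summed to 30.6 to 33.9 CPM in R882H azacitidine libraries, against 25.2 to 35.0 in R882H NaCl libraries, and did not show the same high values.

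Counted over all 34 rows, 25 had a positive log2 change and 9 a negative one, with a median of 0.14, while the median over all 18341 genes tested was -0.04. No row was called by edgeR, DESeq2 or limma-voom, and edgeR called 0.00545% of all genes in this comparison. At an unadjusted p under 0.05 there were 3 rows, Egln3 and Gapdh higher and P4ha2 lower, beside 6.69% of all genes. Groups did not overlap for 3 rows, all higher with azacitidine (1.09% of all genes did so in that direction). Besides Egln3 these were Gpi1 and Pgk1, named here because their values had been seen not to overlap. Gpi1 averaged 348 ± 13.7 CPM (SD, n = 5) in R882H azacitidine and 295 ± 26.4 (n = 4) in R882H NaCl. Pgk1 averaged 200.3 ± 8.30 CPM (n = 5) in R882H azacitidine and 175 ± 27.8 (n = 4) in R882H NaCl. Of the 11 marker lists 1 did not overlap between these groups. None of the 6 megakaryocyte markers was at 0 in any library. They summed to 363 to 545 CPM in R882H azacitidine, against 256 to 359 in R882H NaCl. The largest part was Itga2b, at 247 to 324 CPM in R882H azacitidine and 153 to 218 in R882H NaCl. For each of the other megakaryocyte markers these groups overlapped. Within these groups Pf4 was highest in R882H NaCl 1 and 2 (114 and 99.5 CPM). The part of these markers in the values of Egln3, Gpi1 and Pgk1 was not tested. In bulk RNA of this kind, a different share of cells expressing a gene and a different amount of RNA per cell cannot be told apart.

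By role, the positive changes in R882H were spread over the pathway, with none called in any role. The median log2 change was 0.15 over 8 upper glycolysis rows, 0.22 over 6 lower glycolysis rows and 0.08 over 3 transporters. It was 0.21 over the flux switches (Pfkfb3 and Pfkfb4, which set the level of the phosphofructokinase activator, and Pdk1), 0.10 over Hif1a, Egln1 and Egln3, and 0.02 over 11 other HIF targets. Those targets ranged from -1.51 (P4ha2) to 0.19. The median over the 34 rows differed between the replicate numbers. Fitted to libraries 1 and 2 alone it was 0.30 with 27 rows positive. Fitted to the higher numbers alone it was -0.0029 with 17 positive and 17 negative, and without R882H NaCl 1 and 2 and WT azacitidine 1 it was -0.00042.

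**Figure D2:**
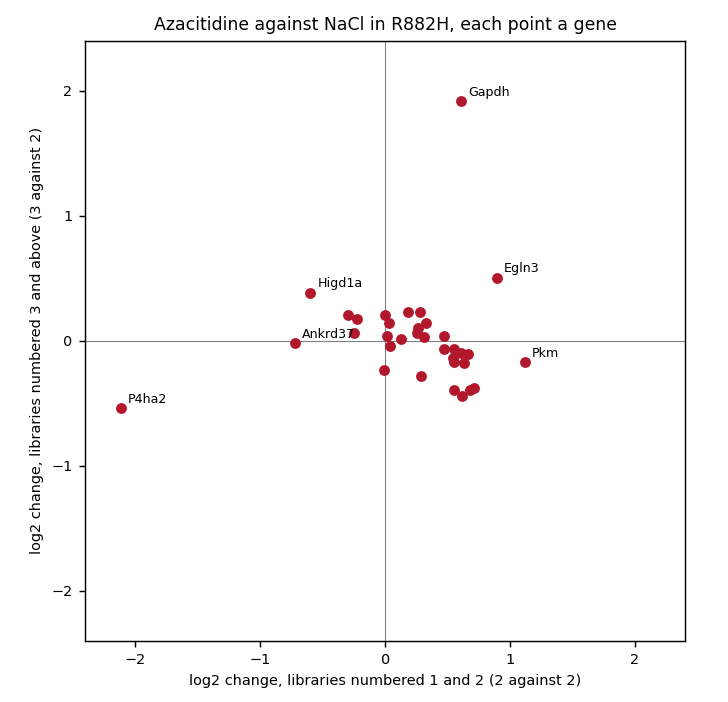
Log2 change with azacitidine in R882H for each gene, fitted to libraries numbered 1 and 2 (horizontal) and, separately, to libraries numbered 3 and above (vertical), with no library shared between the axes. Egln3 is positive on both (0.89 and 0.50), P4ha2 negative on both (-2.11 and -0.54), and Pkm is 1.12 on the first and -0.17 on the second.

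Single genes showed the same split. Pkm had a log2 change of 1.12 (SE 0.33) in libraries 1 and 2 and -0.17 (SE 0.10) in the higher numbers. Slc2a3 had 0.62 (SE 0.31) and -0.44 (SE 0.09) in the same order of fits, and Hif1a 0.55 (SE 0.28) and -0.40 (SE 0.13). Egln3 kept its sign at 0.89 (SE 0.30) and 0.50 (SE 0.13). None of these passed the test of either fit.

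Azacitidine against NaCl in WT asked the same of cells without the mutant allele, and again no row passed. Ddit4 (chr10:59949669-59951834), a stress-induced inhibitor of mTOR signalling, had the lowest p. It stood at 40.9, 24.1 and 15.2 CPM in WT azacitidine libraries, against 12.4, 14.9, 13.5 and 14.6 CPM in WT NaCl libraries. Every azacitidine library lay above every NaCl library, the third by less than 1 CPM. The log2 change was 0.95 (SE 0.28), with an edgeR quasi-likelihood adjusted p of 0.768, and it was 0.50 without WT azacitidine 1.

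Egln3 in WT stood at 53.9, 45.3 and 27.3 CPM with azacitidine, against 32.4, 29.3, 24.4 and 20.7 CPM with NaCl. Libraries 1 and 2 with azacitidine lay above all NaCl libraries and library 3 lay among them. The 6 megakaryocyte markers summed to 689, 954 and 383 CPM in WT azacitidine, against 308 to 447 in WT NaCl, and their part in this result was not tested. The log2 change was 0.66 (SE 0.23, edgeR quasi-likelihood adjusted p 0.825), beside 0.69 in R882H. The log2 difference between the responses of R882H and WT was 0.03 (SE 0.31, edgeR quasi-likelihood adjusted p 0.984).

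Over the 34 rows in WT, 11 were positive and 23 negative, with a median of -0.10 against 0.01 over all genes. The 3 transporters had a median of -0.45, the flux switches -0.29, upper glycolysis -0.11 and lower glycolysis -0.08. No row was called by edgeR, DESeq2 or limma-voom, and edgeR called 0% of all genes. Ddit4 and Egln3 were the 2 rows at an unadjusted p under 0.05, both higher, beside 6.02% of all genes. Groups did not overlap for 2 rows, both higher, beside 2.94% of all genes in that direction. The second was Hk2, named for its lack of overlap, at 35.4 ± 4.76 CPM (SD, n = 3) in WT azacitidine and 28.5 ± 1.03 (n = 4) in WT NaCl.

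**Figure D3:**
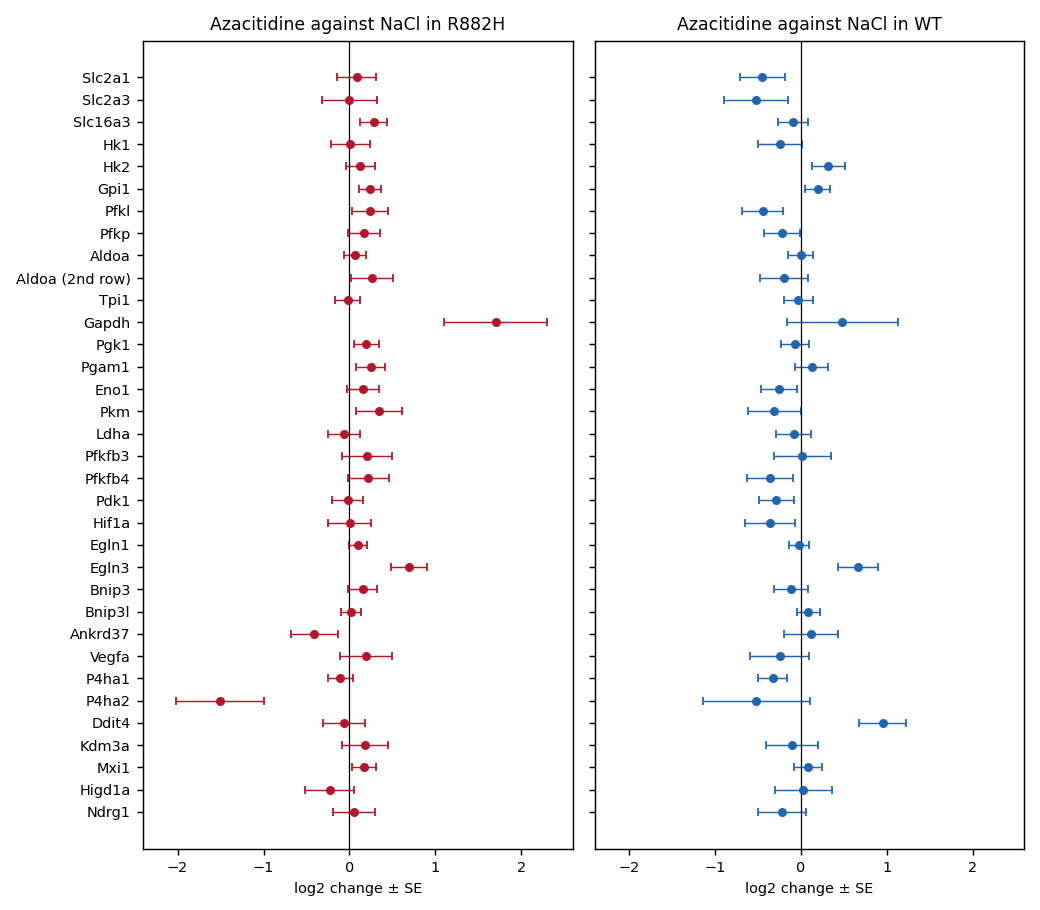
Log2 change with azacitidine of each gene in R882H (left) and in WT (right), with points for the edgeR estimate and bars for its SE, genes grouped by role. Egln3 is near 0.7 in both panels, Ddit4 is 0.95 in WT and close to 0 in R882H, and the transporters are below 0 in WT.

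The average over both genotypes placed Egln3 nearest to a call. Its log2 change was 0.67 (SE 0.16), with an edgeR quasi-likelihood adjusted p of 0.184. DESeq2 gave the same change with an adjusted p of 0.00861 and called 161 genes, and limma-voom gave an adjusted p of 0.246. Leaving out WT azacitidine 3 moved the edgeR quasi-likelihood adjusted p to 0.0329. No row was called by edgeR, which called 0.0218% of all genes here. Beside Egln3, the rows at an unadjusted p under 0.05 were Gapdh at 1.09 (SE 0.44), P4ha2 at -1.01 (SE 0.41), Ddit4 at 0.44 (SE 0.18) and Gpi1 at 0.22 (SE 0.10), which made 5 beside 6.85% of all genes. The edgeR quasi-likelihood adjusted p of these 4 ran from 0.596 to 0.699. In WT, Gapdh stood at 36.6, 12.5 and 36.4 CPM with azacitidine, against 15.6, 11.4, 40.4 and 14.5 CPM with NaCl. P4ha2 stood at 0.168, 0.325 and 0.308 CPM in WT azacitidine, against 0.164, 0.507, 0.608 and 0.258 CPM in WT NaCl. The WT groups overlapped for both genes. Of the 34 rows 17 were positive and 17 negative, and the median was -0.0041, against -0.017 over all genes.

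The difference between the responses of R882H and WT was tested as an interaction. It uses the same libraries as the 2 comparisons before it, and the comparisons of R882H with WT that follow use them again. Of the 34 rows 28 had a positive difference and 6 a negative one, with a median of 0.26 against -0.05 over all genes. None was called by edgeR, DESeq2 or limma-voom (0% of all genes by edgeR). The 2 rows at an unadjusted p under 0.05, beside 6.07% of all genes, were Ddit4 with a log2 difference of -1.01 (SE 0.37) and Pfkl with 0.68 (SE 0.32). Both had an edgeR quasi-likelihood adjusted p of 0.763. The median was 0.11 without R882H NaCl 1 and WT azacitidine 1 and 0.0018 without R882H NaCl 2 as well. The Ddit4 difference was -0.44 and the Pfkl difference 0.33 without the first pair.

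Pfkl (chr10:77986947-78010083) catalyses the committed step of glycolysis. It stood at 421, 381, 431, 395 and 404 CPM in R882H azacitidine libraries, against 228, 278, 444 and 428 CPM in R882H NaCl libraries. In WT it stood at 190, 336 and 320 CPM with azacitidine, against 425, 289, 440 and 381 CPM with NaCl. The 5 R882H azacitidine libraries differed little among themselves, and the low values were R882H NaCl 1 and 2, WT NaCl 2 and the WT azacitidine libraries, with WT azacitidine 1 lowest.

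Ddit4 in R882H stood at 18.6, 14.4, 16.004, 25.6 and 15.2 CPM with azacitidine, against 23.1, 16.1, 18.6 and 17.4 CPM with NaCl. These groups overlapped fully. The summed level of 12 immediate early genes, which respond within minutes to handling or signals, was 1253 to 3234 CPM in R882H azacitidine, 288 to 2251 in R882H NaCl, 390 to 3406 in WT azacitidine and 517 to 1246 in WT NaCl. The highest Ddit4 value, in WT azacitidine 1, came with an immediate early sum of 390 CPM, near the low end. The part of handling or signals in the Ddit4 values was not tested.

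**Figure D4:**
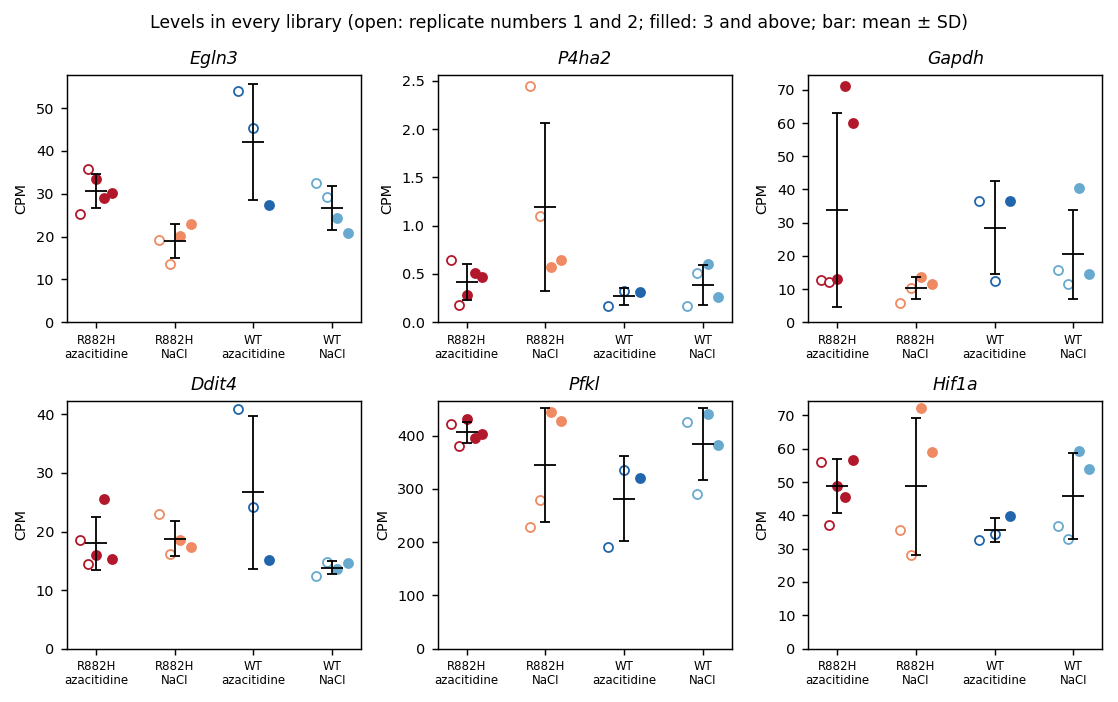
Level of 6 genes in every library in CPM, with groups side by side, open points for replicate numbers 1 and 2, filled points for 3 and above, and bars for mean ± SD. The R882H azacitidine points for Egln3 (25.3 to 35.8 CPM) lie above all R882H NaCl points (13.7 to 22.9), and Hif1a is low in the open points of both NaCl groups.

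R882H against WT under NaCl asked what the allele does without the drug. No row was called by edgeR, DESeq2 or limma-voom, beside 0.00545% of all genes by edgeR. P4ha2 was at 1.19 ± 0.870 CPM (SD, n = 4) in R882H and 0.384 ± 0.208 (n = 4) in WT, with the WT libraries at 0.164, 0.507, 0.608 and 0.258 CPM. R882H NaCl 1 and 2 were high, and R882H NaCl 3 and 4 lay near the top of the WT range. The log2 difference was 1.63 (SE 0.56, edgeR quasi-likelihood adjusted p 0.797) and 1.02 without R882H NaCl 1. Egln3 was lower in R882H by -0.49 (SE 0.22, edgeR quasi-likelihood adjusted p 0.877), at 19.0 ± 3.88 CPM in R882H and 26.7 ± 5.17 in WT (SD, n = 4 each), and these groups overlapped.

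These 2 rows were the only ones of the 34 at an unadjusted p under 0.05 under NaCl, beside 5.59% of all genes. The rows split into 12 positive and 22 negative, with a median of -0.09 against 0.03 over all genes. Groups did not overlap for 2 rows beside 1.97% of all genes, Ddit4 higher in R882H and the second Aldoa row lower, both named for that reason. Ddit4 averaged 18.8 ± 3.01 CPM in R882H and 13.8 ± 1.11 in WT, and the second Aldoa row 2.598 ± 0.568 in R882H and 3.46 ± 0.402 in WT (SD, n = 4 each). Fitted to libraries 3 and 4 alone, the median was 0.05.

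R882H against WT under azacitidine gave 25 positive and 9 negative rows, with a median of 0.15 against -0.02 over all genes. No row was called by edgeR, DESeq2 or limma-voom, beside 0.00545% of all genes by edgeR. Pfkl was higher in every R882H library than in any WT library, with a log2 difference of 0.53 (SE 0.23). Ddit4 had a log2 difference of -0.57 (SE 0.26), with overlapping groups. Both had an edgeR quasi-likelihood adjusted p of 0.533, and they were the 2 rows at an unadjusted p under 0.05, beside 9.34% of all genes. Without WT azacitidine 1 the Pfkl difference was 0.31 and the Ddit4 difference -0.13. Groups did not overlap for 3 rows, all higher in R882H, beside 5.05% of all genes in that direction. The other 2 were Pfkp, at 101 ± 6.36 CPM (SD, n = 5) in R882H and 75.1 ± 16.1 (n = 3) in WT, and Ndrg1, at 190.2 ± 15.6 CPM in R882H and 162 ± 4.84 in WT, named for that reason.

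The most abundant gene of each role showed how the libraries varied within groups. Ldha stood at 1116, 1112, 1106, 1136 and 1061 CPM in R882H azacitidine libraries, against 1048, 1691, 934 and 959 CPM in R882H NaCl libraries. In WT it stood at 883, 1295 and 1042 CPM with azacitidine, against 1365, 1201, 966 and 1028 CPM with NaCl. The R882H azacitidine libraries spread little, while R882H NaCl 2, the library with the highest erythroid sum, stood alone at the top.

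Aldoa (main row) stood at 722, 664, 669, 618 and 622 CPM in R882H azacitidine libraries, against 643, 625, 592 and 657 CPM in R882H NaCl libraries. In WT it had 500.3, 731 and 558 CPM with azacitidine, against 645, 539, 598 and 612 CPM with NaCl. Its NaCl groups spread little, and the lowest and highest values of all were WT azacitidine 1 and 2. The second Aldoa row stayed between 1.80 and 4.28 CPM.

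Slc2a3 stood at 154, 84.4, 118, 144 and 126 CPM in R882H azacitidine libraries, against 77.9, 77.9, 175 and 172 CPM in R882H NaCl libraries. In WT it had 70.8, 58.2 and 100.2 CPM with azacitidine, against 72.5, 63.7, 148 and 155 CPM with NaCl. In both NaCl groups libraries 3 and 4 stood at about the same high level and libraries 1 and 2 at about the same low level.

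Pdk1 stood at 174, 130, 159, 131 and 171 CPM in R882H azacitidine libraries, against 128, 121, 186 and 183 CPM in R882H NaCl libraries. In WT it had 117, 110.1 and 132 CPM with azacitidine, against 126, 107, 173 and 178 CPM with NaCl. The NaCl libraries again fell into a low and a high pair in each genotype, and the WT azacitidine libraries lay near the low pairs.

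Hif1a (chr12:73901375-73947530), the oxygen-regulated subunit itself, stood at 55.99, 37.0, 48.7, 45.6 and 56.6 CPM in R882H azacitidine libraries, against 35.5, 28.1, 72.2 and 59.1 CPM in R882H NaCl libraries. In WT it had 32.6, 34.5 and 39.7 CPM with azacitidine, against 36.8, 32.8, 59.3 and 54.0 CPM with NaCl. Its transcript followed the same pairs as Pdk1 and Slc2a3. HIF alpha is controlled mainly as a protein, which these data do not measure.

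Egln1, the main oxygen-sensing hydroxylase, varied little. It stood at 65.5, 62.6, 61.4, 68.1 and 73.1 CPM in R882H azacitidine libraries, against 64.8, 60.5, 63.1 and 58.4 CPM in R882H NaCl libraries. In WT it had 68.7, 69.2 and 59.9 CPM with azacitidine, against 62.4, 63.2, 75.2 and 66.98 CPM with NaCl. All groups overlapped.

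Bnip3l stood at 209, 199, 201, 170.4 and 183 CPM in R882H azacitidine libraries, against 206, 197, 173 and 183 CPM in R882H NaCl libraries. In WT it had 179, 230.1 and 169 CPM with azacitidine, against 192, 177, 187 and 171 CPM with NaCl. These groups overlapped as well.

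**Figure D5:**
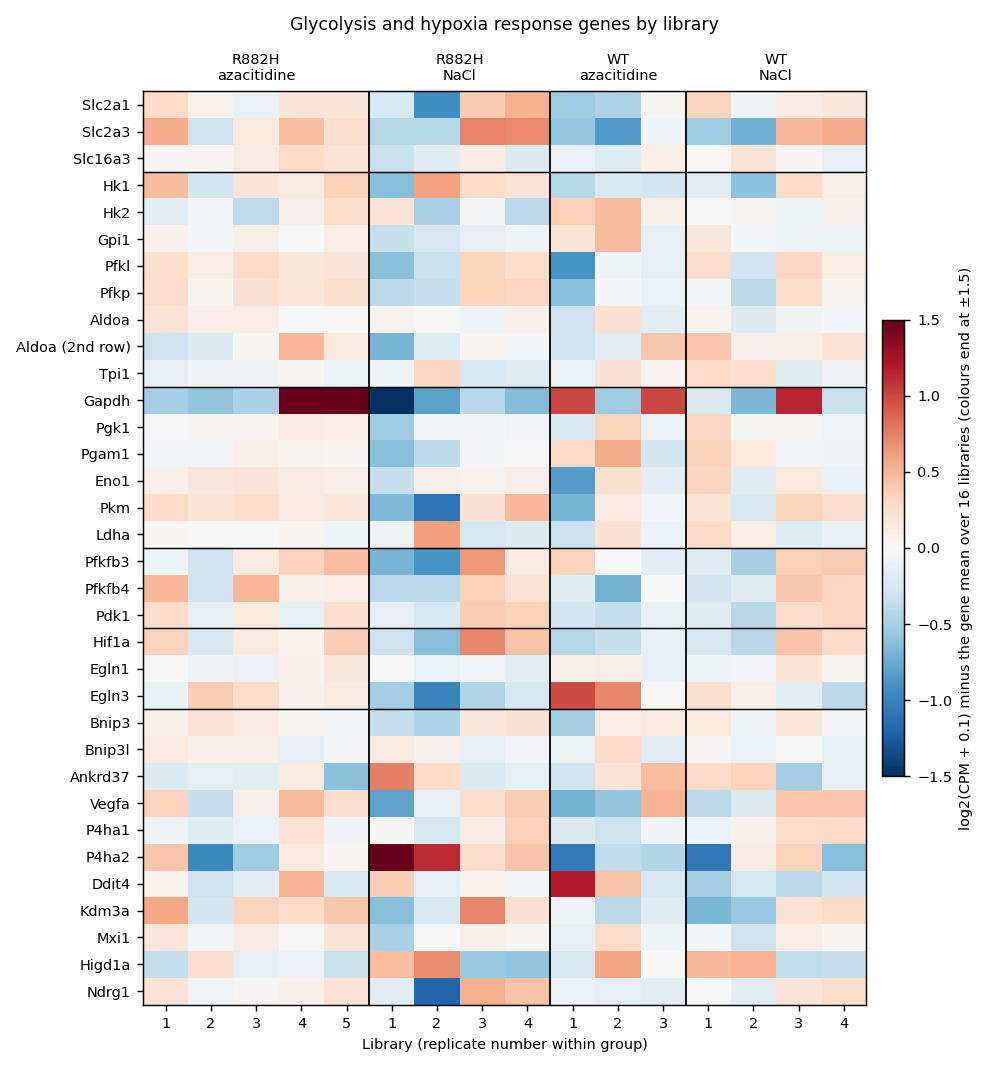
Level of each of the 34 rows in each library as log2(CPM + 0.1) minus the gene's mean over the 16 libraries, with genes grouped by role and libraries by group. Among NaCl libraries, Slc2a3, Pdk1, Hif1a and Kdm3a are below their means in numbers 1 and 2 and above them in 3 and 4, and Higd1a the reverse.

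Among the 8 NaCl libraries the replicate numbers parted the genes in both genotypes. This split was noticed in the data and is described without a test. In the 4 libraries numbered 1 and 2, 12 rows (35.3%) lay wholly below the 4 libraries numbered 3 and 4, and 3 rows (8.82%) wholly above, while 19 overlapped. Of all genes tested, 15.0% lay wholly below and 15.9% wholly above.

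The 12 lower genes came from several roles. They were Slc2a3, Pfkp, Pkm, the flux switches Pfkfb3, Pfkfb4 and Pdk1, Hif1a, and the HIF targets Vegfa, P4ha1 (another collagen prolyl hydroxylase alpha subunit), Kdm3a (a histone demethylase), Mxi1 (a MYC antagonist) and Ndrg1. Slc2a3 averaged 73.0 CPM in numbers 1 and 2 and 163 in numbers 3 and 4, and Kdm3a 47.2 and 88.3 in the same order. Pfkfb3 averaged 16.02 CPM in numbers 1 and 2 and 30.8 in numbers 3 and 4. The 3 higher genes were Ldha, Ankrd37 and Higd1a, and Higd1a averaged 133 CPM in numbers 1 and 2 and 66.0 in numbers 3 and 4. The 2 sets overlapped for the other 19 rows. Among these, Aldoa averaged 613 and 615 CPM, Pgk1 189.5 and 189.6 CPM and Gpi1 314 and 318 CPM in the same order. Tpi1 averaged 625 CPM in numbers 1 and 2 and 483 in numbers 3 and 4, and Pfkl 305 and 423 CPM, also with overlapping sets.

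Markers moved with the same split. Of 11 marker lists, 7 had summed levels that did not overlap between the sets, 4 higher and 3 lower in numbers 1 and 2. The sum of 12 LSK and stem cell markers was 1706 to 3079 CPM in NaCl libraries 1 and 2 and 4616 to 4939 in NaCl libraries 3 and 4. Kit was 410 to 666 CPM in the first set and 926 to 1226 in the second. The sets overlapped for Ly6a, at 48.5 to 275 CPM in the first and 80.1 to 133 in the second. They also overlapped for Cd34, at 427 to 1302 and 1193 to 1376 CPM in the same order. None of the 12 LSK and stem cell markers was at 0 in any library. Erythroid markers summed to 2170 to 10845 CPM in numbers 1 and 2 and 1713 to 2018 in numbers 3 and 4, and megakaryocyte markers to 356 to 447 and 256 to 316 CPM in the same order, with none at 0. Mast cell and basophil markers summed to 128 to 165 CPM in numbers 1 and 2 and 46.7 to 96.7 in numbers 3 and 4, with 3 of 8 at 0 in at least 1 library. Endothelial and stromal markers summed to 56.7 to 110.2 CPM in numbers 1 and 2 and 126 to 145 in numbers 3 and 4. Of these 8 markers 3 were at 0 in at least 1 library. Most of the sum was Pecam1, at 46.5 to 89.8 CPM in numbers 1 and 2 and 96.0 to 122.6 in numbers 3 and 4. Cdh5 and Lepr of the same list stayed at or below 0.234 CPM. The 12 immediate early genes, 2 of them at 0 in at least 1 library, summed to 288 to 644 CPM in numbers 1 and 2 and 809.9 to 2251 in numbers 3 and 4. The 13 mitochondrially encoded genes summed to 3704 to 10531 CPM in the first set and 2257 to 2878 in the second. The sets overlapped for T and NK cell, mature B and plasma cell, mature neutrophil, and macrophage and dendritic cell markers. Whether cell make-up took part in the split of these genes was not tested.

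Other genes of the same pathways showed the same absence of calls, beside 0 to 0.0218% of all genes called by edgeR in the 6 comparisons. Of 30 other isozymes and bypass enzymes of glycolysis 27 were tested, and none was called in any comparison. Hk3, the myeloid hexokinase, stood at 187 to 258 CPM in R882H azacitidine, against 90.6 to 178 in R882H NaCl, and at 168 to 308 CPM in WT azacitidine, against 125 to 160 in WT NaCl. Its log2 change was 0.80 (SE 0.22, edgeR quasi-likelihood adjusted p 0.413) in R882H and 0.77 (SE 0.24, adjusted p 0.809) in WT. The average over both genotypes was 0.79 (SE 0.16, edgeR quasi-likelihood adjusted p 0.110), the lowest adjusted p among these other pathway genes in the 6 comparisons. In R882H, 11 of the 27 were positive and 16 negative, with a median of -0.03, and in WT 13 and 14 with a median of -0.16. At an unadjusted p under 0.05, 1 was higher and 4 lower in R882H, beside 6.69% of all genes. In WT 1 was higher and 0 lower, beside 6.02% of all genes.

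Under NaCl, Pklr, the pyruvate kinase of liver and red cells, had a log2 difference of 2.41 (SE 0.91, edgeR quasi-likelihood adjusted p 0.797) between R882H and WT. Its R882H NaCl libraries held 22.3, 100.4, 2.49 and 1.499 CPM, against 3.66 to 10.1 CPM in WT NaCl libraries. The 2 high libraries were again those with the high erythroid sums, in the same order. The part of the erythroid markers in this difference was not tested.

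No gene was called among 14 genes of pyruvate dehydrogenase and pyruvate import, 7 of the pentose phosphate pathway, 13 of 14 further HIF pathway components that passed the filter, or 31 of 37 further HIF targets. In R882H the pyruvate genes were 5 positive and 9 negative with azacitidine, the pentose genes 3 and 4, the HIF components 4 and 9 and the further HIF targets 14 and 17. Their medians ran from -0.14 to -0.03. At an unadjusted p under 0.05, beside 6.69% of all genes, there were 2 further HIF targets higher, 2 lower and 1 pentose gene lower. This pentose gene was Rpia (ribose phosphate isomerase) at -1.40 (SE 0.43, edgeR quasi-likelihood adjusted p 0.438). It stood at 22.7, 25.5, 6.61 and 4.39 CPM in R882H NaCl libraries, against 4.19 to 7.06 in R882H azacitidine. The high libraries were those with the high erythroid sums, whose part in this difference was not tested. In WT the 14 pyruvate genes were 2 positive and 12 negative, with a median of -0.14. The further HIF targets with the lowest p in R882H were Nt5e, an adenosine-forming ectoenzyme, at -2.33 (SE 0.66, edgeR quasi-likelihood adjusted p 0.415) and Wsb1 at 0.46 (SE 0.16, adjusted p 0.564). Nt5e was near the floor, at 6.23, 1.28, 0.527 and 0.853 CPM in R882H NaCl libraries, against 0.256 to 0.746 in R882H azacitidine. Ep300 and Crebbp, coactivators of HIF, had the lowest p of the pathway components in WT, at 0.78 (SE 0.31) and 0.48 (SE 0.22), both with an edgeR quasi-likelihood adjusted p of 0.825. Both were high in WT azacitidine 1 only. Ep300 stood at 116.7, 39.8 and 45.3 CPM in WT azacitidine libraries, against 30.3 to 48.2 in WT NaCl. Crebbp stood at 140.2, 74.2 and 81.5 CPM in WT azacitidine libraries, against 56.9 to 84.7 in WT NaCl.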

How the data were processed

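Per the submitters' processing notes, the authors used HISAT2 2.0.5, featureCounts 1.6.2 and edgeR 3.26.6 on GRCm38 (mm10). The deposited files hold raw counts per gene, the length of each counted feature, and FPKM computed by the authors. The strand setting and the rule for reads with several positions are not given in the sources used here. Libraries were amplified with a low-input kit without molecular identifiers, so errors cover the spread between libraries.

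Gene counts of the 16 libraries were filtered with filterByExpr, scaled by TMM and fitted with edgeR 4.0.16 (quasi-likelihood, R 4.3.3) with 1 coefficient per group. P-values were adjusted by Benjamini-Hochberg over all 18341 genes, and a call is an adjusted p under 0.05. Repeat rows (1201 features) took 2.97 to 10.1% of counts and stayed out. The highest share was in WT azacitidine 1, with R882H NaCl 1 next at 6.81%. WT azacitidine 1 also had the lowest share of gene counts in the 35 rows described (0.5665%). DESeq2 1.42.0 and limma-voom (limma 3.58.1) were alternatives. Copies were found by BLAST. The lowest chi-square per gene over 25 library pairs of 1 group was 38.5, so no library was a copy of another in its group. Pairs between groups were not compared in this way.

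Same-numbered R882H and WT libraries under NaCl deviated together from their group means (correlations of 0.101 to 0.342 over 4 pairs, every one over 0.1), so a fit with the replicate number as a block was set beside that comparison. The labels do not say what a number marks.

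The genes, lists and alternatives were chosen with earlier results of these data known. Values in every library are given for up to 4 genes per comparison with the lowest unadjusted p under 0.05, for Hif1a and for the gene with the highest mean FPKM of each role. Up to 2 genes per further list were named by lowest p.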

Additional observations from a re-analysis of the deposited data

Results flagged for a closer look

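Single libraries stood far from the rest of their group in 5 of 102 sets of values screened, and chance alone gives about 1 in 20. Pgk1 was 133 CPM in R882H NaCl 1, against 187 to 191 CPM in the other 3 R882H NaCl libraries. Eno1 was 669.58 CPM in the same library, against 880 to 906 CPM. Ldha was 1691 CPM in R882H NaCl 2, against 934 to 1048 CPM. These 2 libraries also held the high erythroid and mitochondrial sums, and the part of these in the values was not tested. The Gapdh row was 40.4 CPM in WT NaCl 3, against 11.4 to 15.6 CPM. Pgk1 was 241 CPM in WT NaCl 1, against 187 to 194 CPM.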

How the results depend on the processing

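In 5 of the 6 comparisons no gene of the 34 rows was called under any alternative run, leave-one-out included (0 to 0). For azacitidine averaged over both genotypes, DESeq2 called 1 (Egln3), and leaving out 1 library gave 0 to 1, the 1 being Egln3 at 0.79 without WT azacitidine 3. Numbers 3 and above alone gave 3 (Slc2a3 at -0.52, Ndrg1 at -0.41 and Higd1a at 0.37) beside 860 genes called, with WT azacitidine then a lone library assumed to vary like the other groups. The cause was not tested. Ddit4 in R882H against WT under azacitidine reversed to 0.32 in numbers 3 and above. The median over the rows for azacitidine in R882H ran from 0.06 to 0.24 with 1 library left out. The median for R882H against WT under NaCl was 0.12 without R882H NaCl 1 and 2 and WT azacitidine 1, a set chosen after seeing the data. Summed with its copies, also chosen after seeing the data, Gapdh averaged 0.46 over both genotypes. Outside R882H against WT under NaCl, the replicate numbers paired the libraries less regularly by the same measure. For azacitidine against NaCl, correlations were -0.119 to 0.117 in R882H (1 of 4 pairs over 0.1) and 0.0492 to 0.345 in WT (1 of 3). For R882H against WT under azacitidine they were -0.124 to 0.0641 (0 of 3). Over all groups, NaCl pairs included, 21 same-numbered pairs had correlations of -0.124 to 0.345, 9 over 0.1. Of 16 libraries, 6 correlated best with their own number. With the replicate block no row was called (0 in all 6 comparisons, and 0 for R882H against WT under NaCl with only the 2 NaCl groups fitted, a fit added after seeing the data), so it changed no call, and Egln3 averaged 0.67 with an edgeR adjusted p of 0.371. Fits to only the groups compared were not run for the difference and the average, which use all 4 groups.

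The common dispersion of 0.166 (a biological coefficient of variation of 40.7%) and 3 to 5 libraries per group set the precision of every comparison. P4ha2 rests on 368 reads in all, and Adm on 31.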
